A study of Mus musculus with 16 samples.

Results

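The tumours of the series were divided into those with a high and those with a low myeloid signal, 8 libraries in each set of the 16 libraries deposited. The sets were chosen by measured values, namely the mean log2(normalized count + 1) of 4 genes made by macrophages and microglia, Aif1, Csf1r, Cd68 and Tyrobp. Because the split is taken from the same libraries, the comparison shows which other genes vary with the score from library to library, and it is no test of a treatment. Of the 8 high libraries 6 came from H3.3WT and 2 from H3.3K27M tumours, and of the 8 low libraries 3 came from H3.3WT and 5 from H3.3K27M tumours. The score alone made this division. The last library inside the high set, library 9 (H3.3WT), scored 10.25, and the first outside it, library 11 (H3.3K27M), scored 10.24.

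The tumours were mouse brain gliomas of C57BL/6 animals carrying Nestin Tv-a and floxed p53 alleles (p53 fl/fl). In such mice the Nestin promoter drives the receptor for RCAS viruses, so that the viruses enter Nestin-expressing cells. On postnatal day 3 all animals received RCAS-PDGFA and RCAS-Cre, which removes p53, together with RCAS carrying either wild-type histone H3.3 (H3.3WT, 9 libraries) or H3.3 with the K27M change (H3.3K27M, 7 libraries). Both groups therefore share PDGF-A and p53 loss, the tumours were otherwise untreated, and RNA was taken at an endpoint whose age the labels do not give. Libraries are called here by their column numbers 1 to 16, since the columns could be tied to a group by the number of libraries in it but not to a named tumour. The design text counts 5 independent H3.3K27M and 3 independent H3.3WT tumours, fewer than the libraries, so that some libraries may share a tumour, in which case the p-values below are too small. The labels do not say in how many animals the tumours arose, so p-values measure the spread between these libraries.

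Gliomas hold many immune cells besides the tumour cells, and most of these are myeloid. Microglia are the resident macrophages of the brain, need signalling through the receptor Csf1r to survive, and are joined in tumours by macrophages derived from blood monocytes. Aif1 (Iba1) is an actin-binding protein of both, Cd68 a protein of their lysosomes, and Tyrobp (DAP12) the signalling adaptor of Trem2 and related receptors. RNA of whole tumour pieces counts all these cells at once, so that fewer cells of a type and less RNA per cell cannot be told apart in any value given below.

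The reads recovered per library ranged from 11439144 in library 8 to 41730692 in library 16, and library 8, in the high set, was shallower than every other library. Between 16135 and 17656 genes had at least 1 read. Xist exceeded Ddx3y, as in a female mouse, in 5 of 8 high and 4 of 8 low libraries. The haemoglobin list was at a median list score, the mean log2(normalized count + 1) of its genes, of 10.8 in the high set and 7.20 in the low set, and the neuron list at 8.34 and 7.62. Library 6 was highest on both lists. With both groups pooled, long genes were relatively lower in the high set. The trend of a library's values on exon length, in log2 units per doubling of length, had a median of -0.0506 there. In the low set the median was 0.0989, and library 8 of the high set was lowest at -0.306. In H3.3K27M the high libraries 10 and 12 stood at -0.0343 and -0.0524, below the low libraries (0.0656 to 0.2264). In H3.3WT the sets were not apart. Its low libraries 5, 1 and 3 stood at -0.1101, -0.1138 and 0.0342, within the range of its high libraries (-0.306 to 0.1234). The part of red blood cells, neurons, depth and transcript length in the differences below was not tested except where a value is given.

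The 4 score genes did not follow one another exactly. In order of falling score, Aif1 stood at 1051, 1307, 896, 717, 834, 588, 736, 662 normalized counts in libraries 6, 8, 10, 2, 12, 7, 4 and 9 of the high set. In libraries 11, 13, 16, 5, 1, 3, 15 and 14 of the low set it stood at 531, 552, 433, 750.3, 414, 211, 281, 305. The sets overlap for Aif1, because library 5 of the low set is above 4 libraries of the high set. Csf1r ran from 1841 in library 8 to 3788 in library 6 in the high set, with a median of 2861. In the low set it ran from 1124 in library 1 to 3432 in library 13, with a median of 2071. All 4 genes were present in every library, the lowest value of any being 211 for Aif1 in library 3. Library 8 had the highest Aif1 and Cd68 of all libraries and the lowest Csf1r of the high set.

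Cd68 ran from 958 to 2563 in the high set (median 1633) and from 666 to 1535 in the low set (median 964). Tyrobp ran from 1402 to 2819.6 in the high set (median 1513) and from 697 to 1412 in the low set (median 1128). Tyrobp separated the sets most closely, with library 11 alone above the lowest library of the high set. The score itself spanned a 2.8-fold range between libraries 6 and 14. Leaving Csf1r, Cd68 or Tyrobp out of the score moved 0 libraries to the other set, and leaving Aif1 out exchanged libraries 9 and 11. The 9 H3.3WT libraries had a mean score of 10.39 (SD 0.45), and the 7 H3.3K27M libraries one of 10.14 (SD 0.43).

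**Figure D1:**
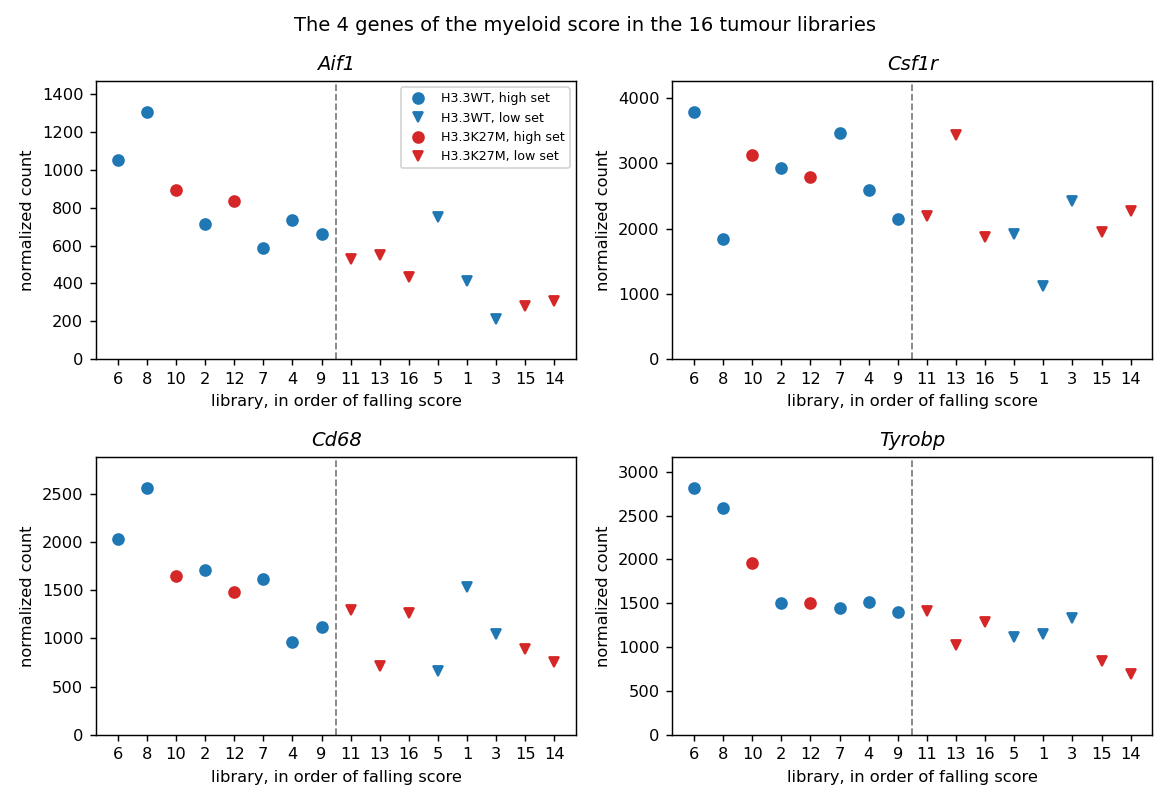
Normalized counts of the 4 score genes in each library, ordered by falling score, with colour for the group, symbol for the set and a dashed line at the division between libraries 9 and 11. Tyrobp falls most regularly along the order, whereas library 13 of the low set reaches 3432 for Csf1r and library 1 reaches 1535 for Cd68.

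The promoter windows of 2 score genes are shown with those of Rinl and Tbxas1. Rinl and Tbxas1 are from the 10 genes of smallest p-value on the higher side outside the lists of myeloid markers, and neither passed the limma threshold. Myeloid genes commonly carry sites for PU.1, the ETS-family factor of the macrophage lineage. Its core was searched as GAGGAA on both strands (TTCCTC on the other strand). Windows of 300 bases, 250 before to 50 after the start site, come from RefSeq on GRCm38.p6, and capitals mark the core. Aif1 lies at chr17:35176003-35176302, minus strand, Cd68 at chr11:69666121-69666420, minus strand, Rinl at chr7:28788719-28789018, plus strand and Tbxas1 at chr6:38918736-38919035, plus strand, each window written along its gene.
Aif1: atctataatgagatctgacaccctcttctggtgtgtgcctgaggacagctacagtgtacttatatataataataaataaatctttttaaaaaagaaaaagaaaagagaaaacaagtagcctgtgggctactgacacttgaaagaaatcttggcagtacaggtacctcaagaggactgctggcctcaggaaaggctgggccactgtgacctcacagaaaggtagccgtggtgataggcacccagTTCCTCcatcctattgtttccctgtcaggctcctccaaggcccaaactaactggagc
Cd68: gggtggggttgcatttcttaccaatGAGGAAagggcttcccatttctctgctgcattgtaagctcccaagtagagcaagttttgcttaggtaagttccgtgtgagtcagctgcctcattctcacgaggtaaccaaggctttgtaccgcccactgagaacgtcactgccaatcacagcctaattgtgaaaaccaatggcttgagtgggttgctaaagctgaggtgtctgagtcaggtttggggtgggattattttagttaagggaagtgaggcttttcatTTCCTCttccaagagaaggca
Rinl: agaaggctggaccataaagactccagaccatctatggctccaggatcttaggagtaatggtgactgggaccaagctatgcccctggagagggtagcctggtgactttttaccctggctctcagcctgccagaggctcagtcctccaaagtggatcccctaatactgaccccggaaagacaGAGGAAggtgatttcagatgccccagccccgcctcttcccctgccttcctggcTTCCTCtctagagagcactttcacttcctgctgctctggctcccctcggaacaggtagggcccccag
Tbxas1: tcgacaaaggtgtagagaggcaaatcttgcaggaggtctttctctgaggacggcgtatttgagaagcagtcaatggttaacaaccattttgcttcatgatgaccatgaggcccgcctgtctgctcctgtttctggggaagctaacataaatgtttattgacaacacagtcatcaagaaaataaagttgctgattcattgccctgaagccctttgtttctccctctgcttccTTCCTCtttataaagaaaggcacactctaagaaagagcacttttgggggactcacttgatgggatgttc
The core begins 7 bases before the start site in Aif1 and 19 bases before it in Tbxas1. Of all 32851 windows of this length 28.3% hold the core in at least 1 place. It was present in both score genes with a window that could be printed, in 3 of 9 matched genes among the 10 with the smallest p on the higher side and in 1 of 8 on the lower side. The 4 windows printed all hold the core, so they do not stand for the 9 matched genes. Cd48, Ncf1, Ptpn6, Ttc5, Itgb5 and Hcls1 had windows without it. These matches are letters in a window and no evidence of binding.

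Across the 15003 other genes tested, none passed the threshold between the sets. With limma on log2(normalized count + 1) and the H3.3 group as a covariate, the called share at an adjusted p under 0.05 was 0%, and the smallest adjusted p was 0.4. At an unadjusted p under 0.05, 747 genes (4.98%) were higher and 735 (4.9%) lower in the high set. If no gene differed, a share of about 0.05 would be expected over both directions together. Whether the shares exceed chance was not tested. The counts depended on single libraries, with 496 higher and 364 lower without library 3, and 1072 and 1078 without library 5. In all, 7654 of the 15003 genes had a difference above 0, and the median difference was 0.01. The quasi-likelihood test of edgeR, run on whole reads recovered from the values, also called 0 genes in either direction, with 716 higher and 793 lower at an unadjusted p under 0.05. DESeq2 on the same reads called 24 genes (0.16%) higher and 6 (0.04%) lower by the same threshold. The 20 genes of smallest limma p-value described below were ranked with the lists of myeloid markers left out. Of these 20 DESeq2 called 15, which were all 10 on the higher side and Cplane1, Mtmr12, Arhgap21, Fzd10 and Haus2 on the lower side.

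When the score entered the fit as a continuous value instead of as 2 sets, 2 genes (0.0133% of those tested) rose with it and 0 fell. These were C1qa, a chain of the complement protein C1q that brain macrophages make, and P2ry6, the receptor for UDP through which microglia are triggered to phagocytose. P2ry6 (chr7:100937633-100964366) rose by 1.36 ± 0.20 log2 units per unit of score. C1qa (chr4:136895915-136898844) rose by 0.97 ± 0.14 per unit. Both genes are made by the same cells as the score genes, so both slopes are a description and no independent test.

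**Figure D2:**
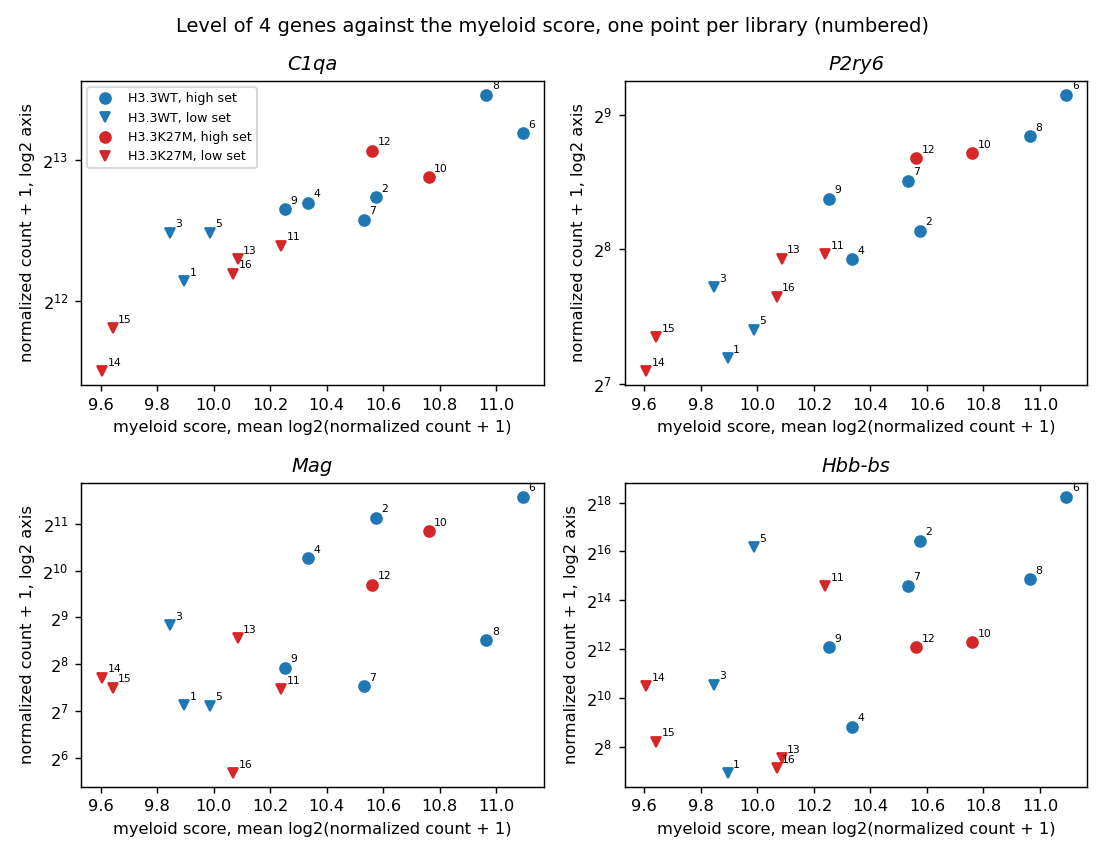
Normalized count + 1 on a log2 axis against the myeloid score for C1qa, P2ry6, the myelin gene Mag and the haemoglobin gene Hbb-bs, 1 point per library with its number, colour for group and symbol for set. C1qa runs from 2889.9 in library 14 to 11300.2 in library 8 with little scatter, whereas Mag and Hbb-bs vary widely among libraries of like score.

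On the higher side the 10 genes of smallest p-value outside the lists of myeloid markers were led by P2ry6. P2ry6 ran from 242 to 566 (median 386) in the high set and from 136 to 248 (median 184) in the low set. All 8 high libraries were above the low median, but libraries 11 and 13 of the low set overlapped the high set, and the fitted difference (high minus low, in log2(normalized count + 1), ± SE) was 1.07 ± 0.23, adjusted p = 0.4 by limma. For the genes that follow, brackets hold the same fitted difference, its SE and its limma p adjusted over all 15003 genes. The fitted difference is adjusted for the H3.3 group. Ranges, set medians and counts of libraries above or below a median are not, here and below. Because the groups are unevenly spread over the sets, the medians can differ from the fit in size or direction. Cd48, a surface protein of the SLAM family on blood cells, ran from 105 to 244 (median 148) in the high set and from 58.0 to 133 (median 67.6) in the low set (1.19 ± 0.26, adjusted p = 0.4). Ncf1, the p47phox subunit of the phagocyte NADPH oxidase, ran from 432 to 1206 (median 789) in the high set and from 233 to 692 (median 434) in the low set (1.03 ± 0.23, adjusted p = 0.4). Cd48 was above the low median in 8 of 8 and Ncf1 in 7 of 8 high libraries, and both overlapped between sets.

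Ptpn6 encodes SHP-1, a phosphatase that restrains receptor signalling in blood cells, and had medians of 556 against 354 normalized counts in the high and low sets (0.75 ± 0.17, adjusted p = 0.4). Hcls1, an actin regulator of blood cells, had medians of 944 against 541 (0.80 ± 0.19, adjusted p = 0.4). Tbxas1, thromboxane A synthase, had medians of 300.2 against 161 (0.89 ± 0.21, adjusted p = 0.4). All 8 high libraries were above the low median for each of these 3 genes. Asb2, a substrate receptor of a ubiquitin ligase that acts on filamins in blood cells, ran from 48.4 to 288 (median 156) in the high set and from 19.8 to 106 (median 44.7) in the low set (1.81 ± 0.43, adjusted p = 0.4), the largest difference of the 10.

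The other 3 genes of the 10 were Rinl, Ttc5 and Itgb5. Rinl, a guanine nucleotide exchange factor for Rab GTPases (chr7:28788968-28798966), ran from 148 to 576 (median 168) in the high set and from 52.3 to 137 (median 76.5) in the low set, with library 10 far above the others (1.45 ± 0.32, adjusted p = 0.4). Ttc5, a cofactor of the stress response that also binds tubulin being made, ran from 1053 to 1455 (median 1262) in the high set and from 690.4 to 984 (median 912) in the low set (0.54 ± 0.12, adjusted p = 0.4). Itgb5, the integrin beta 5 chain of a vitronectin receptor, had medians of 1734 against 989 (0.74 ± 0.17, adjusted p = 0.4). The sets did not overlap for Rinl and Ttc5. Each of the 10 genes had the same sign in the H3.3WT libraries alone and in the H3.3K27M libraries alone.

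On the lower side Fzd10 had the largest difference among the 10 genes of smallest p-value outside the lists of myeloid markers. Fzd10, a receptor for Wnt ligands, ran from 128 to 821 (median 306) in the high set and from 600.4 to 1958 (median 964) in the low set (-1.74 ± 0.39, adjusted p = 0.4). All 8 high libraries were below the low median, although the sets overlapped. Asxl1, a Polycomb-group cofactor of the deubiquitinase Bap1, had medians of 2211 against 3729 (-0.75 ± 0.18, adjusted p = 0.4), and Chd1, a chromatin remodeller, 1768 against 2814 (-0.52 ± 0.13, adjusted p = 0.4). Mtmr12, a catalytically inactive myotubularin (chr15:12205093-12272240), ran from 854 to 1164 (median 949) in the high set and from 1235 to 2150.1 (median 1498) in the low set without overlap (-0.67 ± 0.15, adjusted p = 0.4).

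Cplane1, a ciliogenesis protein, had medians of 1564 against 2563 (-0.55 ± 0.12, adjusted p = 0.4), and Haus2, a subunit of the augmin complex of the mitotic spindle, 1722 against 2512 (-0.58 ± 0.15, adjusted p = 0.4). Arhgap21 had medians of 5019 against 9109.7 (-0.74 ± 0.17, adjusted p = 0.4), and Iqgap3, a scaffold protein of dividing cells, 932 against 1626 (-0.76 ± 0.18, adjusted p = 0.4). Soga1, a microtubule-associated protein, ran from 960.4 to 3752 (median 1841) in the high set and from 2118 to 6394 (median 5054) in the low set (-1.23 ± 0.30, adjusted p = 0.4). Nod2, an intracellular sensor of bacterial cell wall fragments, ran from 22.9 to 86.4 (median 47.4) in the high set and from 82.7 to 142 (median 104) in the low set (-1.15 ± 0.29, adjusted p = 0.4). All 8 high libraries were below the low median for each of the 10 genes. The median exon length was 3212 bases among the 747 genes higher at an unadjusted p under 0.05, 6915 among the 735 lower and 4426 among all genes tested. With the exon length trend taken out of every library, the difference of Cplane1 was -0.40, that of Soga1 -1.14 and that of P2ry6 1.02.

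**Figure D3:**
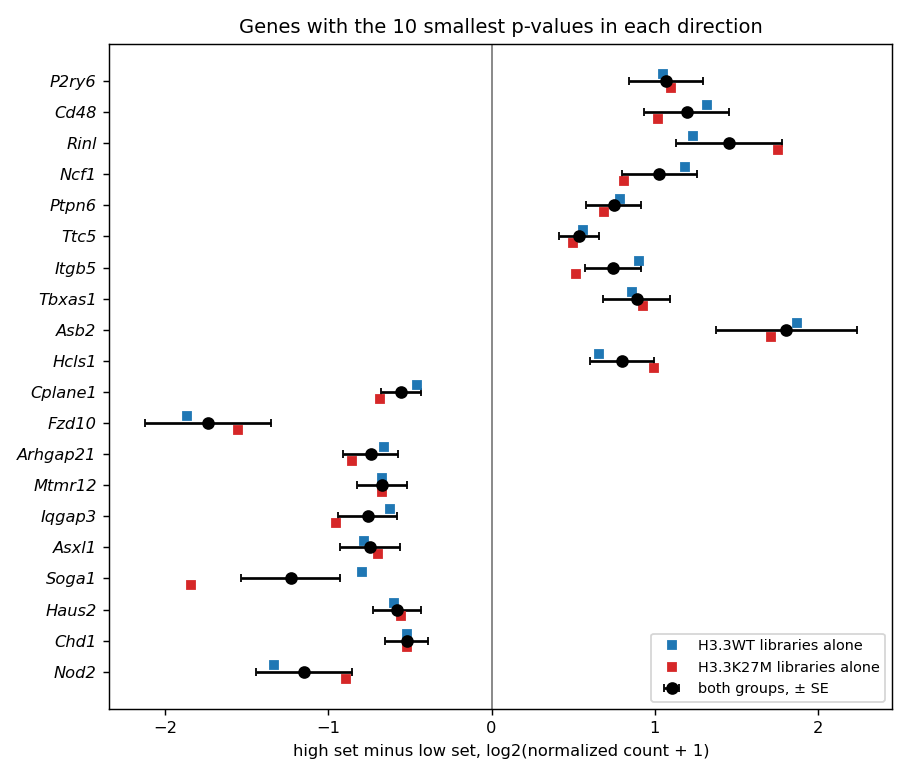
Fitted difference between sets in log2(normalized count + 1) for the genes with the 10 smallest p-values in each direction outside the lists of myeloid markers. Black points with their SE are for both groups together and coloured squares for each group alone. The 10 higher genes lie between 0.54 (Ttc5) and 1.81 (Asb2), and Soga1 shows the widest gap between groups, at -0.79 and -1.84.

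The sets did not overlap at all for 5 genes (0.0333%) on the higher side, which were Rinl, Ttc5, C1qa, Klc4 and Bloc1s1, and for 7 genes (0.0467%) on the lower side, which were Mtmr12, Vezf1, Fam135a, March7, Scai, Bahd1 and Ddx42. Apart from Rinl, Ttc5 and Mtmr12 these were picked out after their values were seen. Klc4, a kinesin light chain, ran from 1126 to 1702 (median 1242) in the high set and from 684 to 1102 (median 934) in the low set (0.51 ± 0.15, adjusted p = 0.4). Bloc1s1, a subunit of a complex for lysosome-related organelles, ran from 78.8 to 128 (median 91.1) in the high set and from 52.4 to 78.4 (median 60.5) in the low set (0.50 ± 0.23, adjusted p = 0.492).

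Genes on the lists of myeloid markers share their source with the score, and are given as values without a test. P2ry6 and Ncf1 above and Cxcl16 below are on none of these marker lists but are also made by macrophages. Their p-values are therefore no independent evidence. The same caution applies to the blood cell genes Cd48, Ptpn6, Hcls1 and Asb2 above, to the lysosomal genes below and to any other gene made by macrophages. Which cells made their RNA was not tested, and neither their p-values nor their DESeq2 calls are independent evidence. Of 22 further genes of macrophage identity, 20 were above 0, with a median difference of 0.59 against 0.01 over all genes. Ly86, a partner of a Toll-like receptor relative, ran from 465 to 1966 (median 578) in the high set and from 229 to 610.3 (median 326) in the low set. Fcer1g, the common signalling chain of Fc receptors, had medians of 1529 against 937, and Adgre1, which encodes F4/80, 594 against 382. All 8 high libraries were above the low median for each of these 3 genes, although each overlapped. Of 13 complement and Fc receptor genes tested, 12 were above 0 (median 0.61). Fcgr4 had medians of 294 against 184, Fcgr1 of 517 against 291 and the complement receptor C3ar1 of 770.3 against 416, and C1qa, which did not overlap, ran from 6108 to 11300.2 (median 7176) in the high set and from 2889.9 to 5725 (median 4848) in the low set.

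Homeostatic microglia genes were above 0 in 15 of 18 cases, with a median of 0.39. Fcrls, a gene of mouse microglia, ran from 89.1 to 2103 (median 839.7) in the high set and from 16.1 to 317 (median 90.4) in the low set, a difference of 2.08 ± 0.75. Cx3cr1, the fractalkine receptor, had medians of 1898 against 1291, the purinergic receptor P2ry13 of 312 against 230.0 and Rnase4 of 841 against 498. By group the median of this list was 0.76 in the H3.3WT libraries alone and -0.09 in the H3.3K27M libraries alone, a gap that was not tested for the list. Leaving out 1 library at a time moved its median between 0.10 (without library 1) and 0.61 (without library 10).

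Of 21 genes of monocyte-derived and border macrophages 19 passed the filter on low values, and 16 of these were above 0 (median 0.57). Arg1, the arginase of wound-type macrophages, ran from 37.2 to 2418 (median 202) in the high set and from 8.48 to 221 (median 89.6) in the low set, with library 8 highest. Ms4a7, a gene of border and tumour macrophages, ran from 18.0 to 746 (median 318) in the high set and from 8.48 to 331 (median 74.5) in the low set. Ccr2, the receptor by which monocytes leave the marrow, had medians of 85.1 against 62.1 and was above the low median in 4 of 8 high libraries. The group medians ran opposite to the microglia list, at 0.16 in the H3.3WT libraries alone and 1.29 in the H3.3K27M libraries alone. The H3.3K27M group has 2 libraries in the high set, libraries 10 and 12, so that these medians rest on 2 libraries. Leaving out 1 library at a time moved the median of this list between 0.36 (without library 10) and 0.80 (without library 5).

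Phagocytic and lipid-associated genes were above 0 in 13 of 18 cases (median 0.49). Spp1 (osteopontin) ran from 636 to 7933 (median 1732) in the high set and from 82.7 to 3911 (median 517) in the low set, and Igf1 from 136 to 557 (median 322) in the high set and from 82.7 to 205 (median 139) in the low set. Apoe, the main lipid carrier of the brain, ran from 63054 to 151014 (median 83098) in the high set and from 26487 to 83244 (median 46861) in the low set. Spp1 and Apoe were above the low median in all 8 high libraries, and Igf1 in 7 of 8. By group, the difference of Spp1 was 0.07 in the H3.3WT libraries alone and 2.78 in the H3.3K27M libraries alone. That of Apoe was 0.43 and 1.45, that of Igf1 1.23 and 0.81, and the list median 0.35 and 0.59. The H3.3K27M values rest on the high libraries 10 and 12. MHC class II genes, which present antigen to helper T cells, were above 0 in 8 of 10 cases, with a median of 0.05, and medians of -0.44 in the H3.3WT libraries alone and 0.79 in the H3.3K27M libraries alone. The MHC class II median ran from -0.19 (without library 1) to 0.32 (without library 5). On the list's mean level libraries 11 (10.50) and 13 (10.47) of the low set were highest, and library 8 (8.18) of the high set was below all but library 1 (8.12).

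The growth factors on which these cells depend gave no call. Of 9 genes of the CSF1 axis tested, 5 were above 0 (median 0.02), 0 were called, and 0 higher and 1 lower passed an unadjusted p under 0.05. Csf1, a ligand of Csf1r, ran from 1490.0 to 3122 (median 2052) in the high set and from 1369.8 to 6005 (median 2150.0) in the low set (-0.26 ± 0.26, adjusted p = 0.751). Il34, the other ligand, ran from 242 to 744 (median 426) in the high set and from 183 to 1492 (median 487) in the low set (-0.42 ± 0.40, adjusted p = 0.734). Library 3 of the low set was highest for both ligands, and without it the difference of Csf1 was 0.06. Tgfb2 was the gene past the unadjusted threshold, with medians of 1627 against 2084 (-0.43 ± 0.19, adjusted p = 0.469), whereas Tgfb1 had medians of 1428 against 791 (0.43 ± 0.30, adjusted p = 0.623). The receptor chains Csf2ra and Csf3r had medians of 2355 against 1459 and 226 against 181, and the other 3 genes, Flt3l among them, had differences between -0.01 and 0.32.

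Chemokines that attract myeloid cells were above 0 in 9 of 17 cases (median 0.00), with 1 higher at an unadjusted p under 0.05. Their median was -0.63 in the H3.3WT libraries alone and 0.99 in the H3.3K27M libraries alone, and over both groups it was -0.29 without library 12 and 0.33 without library 3. That gene, Cxcl16, a membrane-bound chemokine of macrophages, ran from 581 to 1378 (median 851) in the high set and from 210.0 to 1283 (median 534) in the low set (0.70 ± 0.31, adjusted p = 0.476). Ccl12, a ligand of Ccr2 in the mouse, and Ccl6 had medians of 174 against 111 and 239 against 135 (0.86 ± 0.42, adjusted p = 0.511 and 0.86 ± 0.43, adjusted p = 0.524). Cxcl2, a neutrophil chemokine, ran from 1.69 to 410.1 (median 9.40) in the high set and from 0.836 to 656 (median 39.6) in the low set (-2.19 ± 1.10, adjusted p = 0.527). Among 20 cytokine and NF-kB genes 10 were above 0 (median -0.14), with medians of -0.48 in the H3.3WT and 0.60 in the H3.3K27M libraries alone and of -0.31 without library 12 and 0.03 without library 3. Nfkb1 stood at medians of 1533 against 1904 (-0.33 ± 0.14, adjusted p = 0.469) and Tnf at 70.7 against 39.2 (0.59 ± 0.38, adjusted p = 0.6).

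The medians of the interferon and MHC class I lists were below 0 in the H3.3WT and above 0 in the H3.3K27M libraries, a gap that was not tested for the lists and whose H3.3K27M side rests on 2 high libraries. Type I interferon genes, whose products block viruses, had a median difference of 0.06 over both groups with 13 of 24 above 0, but medians of -0.83 in the H3.3WT libraries alone and 1.28 in the H3.3K27M libraries alone. On the list's mean level the H3.3K27M libraries 12 (10.45) and 10 (10.23) of the high set were above all 5 H3.3K27M libraries of the low set (8.52 to 9.78). Among H3.3WT libraries the low library 3 was highest of all 16 (11.05), and libraries 5 and 1 (9.54 and 9.46) lay within the range of the 6 high libraries (8.76 to 9.81). Over both groups the median was 0.48 without library 3 and -0.28 without library 12. Mx1, an antiviral GTPase, ran from 29.3 to 304 (median 82.2) in the high set and from 62.6 to 2603 (median 108) in the low set (-1.34 ± 0.70, adjusted p = 0.535), with 2603 in library 3. Its difference was -3.13 in H3.3WT alone and 1.16 in H3.3K27M alone.

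Oas2, which senses double-stranded RNA, had medians of 136 against 83.6 (0.74 ± 0.43, adjusted p = 0.57), and Ifih1, the sensor Mda5, 767 against 989 (-0.68 ± 0.39, adjusted p = 0.564). Type II interferon genes were above 0 in 4 of 17 cases (median -0.23), with medians of -0.73 in the H3.3WT libraries alone and 0.44 in the H3.3K27M libraries alone. Over both groups it was 0.31 without library 3 and -0.42 without library 9. Ifi47, an interferon-induced GTPase, ran from 372 to 2419.9 (median 669) in the high set and from 827 to 6896 (median 1258) in the low set (-0.83 ± 0.53, adjusted p = 0.599). MHC class I and processing genes were above 0 in 5 of 17 cases (median -0.12), with medians of -0.67 in the H3.3WT libraries alone and 0.60 in the H3.3K27M libraries alone, and of -0.43 without library 12 and 0.09 without library 3. Tap1, the peptide transporter of this pathway, had medians of 1812 against 4539 (-0.65 ± 0.47, adjusted p = 0.64). None of the members tested of these 3 lists passed an unadjusted p under 0.05.

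Whether the difference between sets was unlike in the 2 groups was tested with a term for set by group. Of the 15003 genes limma called 0 (0%), the smallest adjusted p was 0.088, and 1194 had an unadjusted p under 0.05. On the recovered reads edgeR called 0 and DESeq2 22 of the 15003 genes for the same term. The smallest limma p belonged to Meox2, a homeobox gene of vessels and mesoderm, at -6.96 ± 1.06 for H3.3K27M minus H3.3WT. Without library 6 it was the 1 gene called, at an adjusted p = 0.00155 by limma, and without library 12 another gene was the 1 called. Meox2 was low throughout, from 1.90 to 33.6 (median 11.3) in the high set and from 0 to 71.9 (median 40.6) in the low set. Its fitted difference between sets was 1.04 ± 0.97 over both groups, opposite in direction to these medians. In H3.3WT alone it was 3.93 and in H3.3K27M alone -3.02. Among the 6 smallest, which were picked out after their values were seen, Isg15, Mx2 and Stat2 are type I interferon genes. Isg15 stood at 3.03 ± 0.62, Mx2 at 3.72 ± 0.77 and Stat2 at 2.34 ± 0.53, each at an adjusted p = 0.617 by limma.

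**Figure D4:**
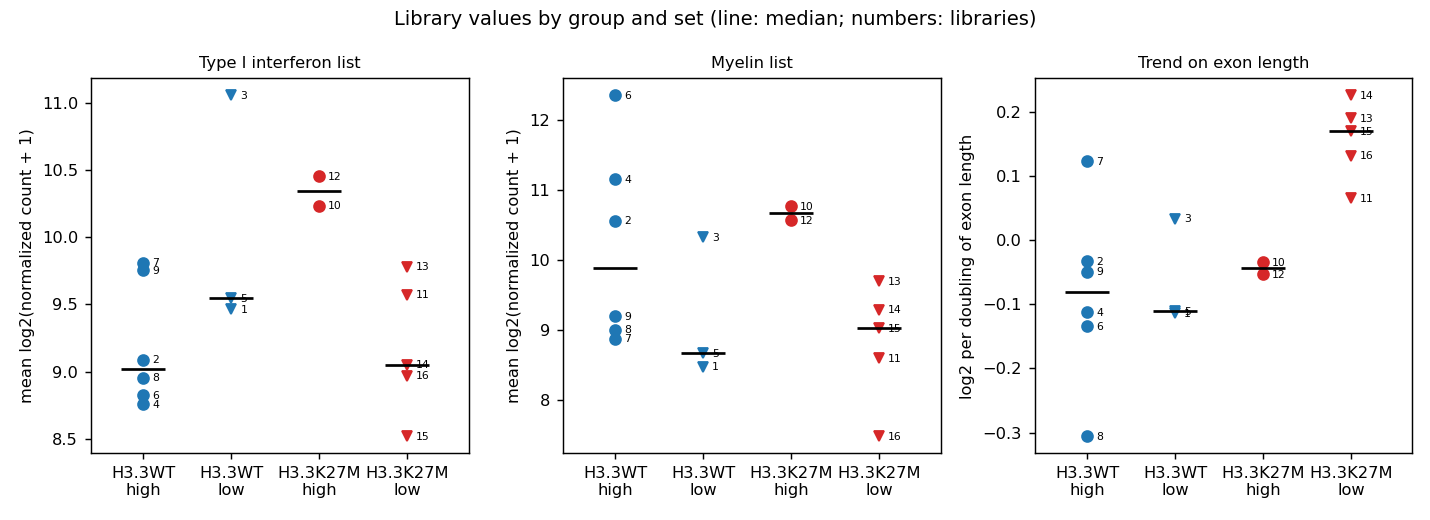
Mean log2(normalized count + 1) of the type I interferon list (left) and of the myelin list (middle), and each library's trend on exon length in log2 units per doubling (right), by group and set, with a line at the median and library numbers. In H3.3K27M the high libraries 10 and 12 are above the low ones on both lists, whereas in H3.3WT library 3 of the low set has the highest interferon level, 11.05.

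Other immune cells were measured at low levels. Of 13 listed T cell genes 12 were in the deposited data and 10 passed the filter. Of these 8 were above 0 (median 0.49), and 1 passed an unadjusted p under 0.05. That gene was Cd4, the coreceptor of helper T cells, which ran from 39.8 to 395 (median 62.6) in the high set and from 8.48 to 111 (median 33.3) in the low set (1.39 ± 0.63, adjusted p = 0.485). The 4 B cell and plasma cell genes tested were all above 0 (median 0.88), led by Cd79b, a chain of the B cell receptor, at medians of 48.6 against 21.7 (1.05 ± 0.43, adjusted p = 0.447). Of 8 dendritic cell genes 4 were above 0 (median -0.02), and Xcr1, the receptor of cross-presenting dendritic cells, ran from 12.3 to 137 (median 41.2) in the high set and from 4.09 to 33.4 (median 20.3) in the low set (1.35 ± 0.54, adjusted p = 0.438). Zbtb46, listed for the same cells, went the other way, with medians of 203 against 380 (-0.52 ± 0.34, adjusted p = 0.6). Without library 1 the T cell median was -0.0038, and without library 5 it was 0.81. Natural killer genes were above 0 in 1 of 4 cases (median -0.15) and neutrophil and mast cell genes in 4 of 6 (median 0.19), and both medians changed sign as single libraries were left out, from -0.56 to 0.24 and from -0.15 to 0.55. Checkpoint genes were above 0 in 8 of 13 cases (median 0.09, from -0.03 without library 10 to 0.19 without library 3). Kit, the stem cell factor receptor listed for mast cells and also made by other cells, had medians of 2421 against 4339.9 (-0.66 ± 0.31, adjusted p = 0.491).

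Myelin genes had the largest positive median of the neural lists. Of 12 genes of mature oligodendrocytes 11 were above 0, with a median of 1.34, and 5 were higher at an unadjusted p under 0.05, although 0 were called. Mag, an adhesion protein of the inner myelin layer, ran from 184 to 3072 (median 1031) in the high set and from 50.1 to 457 (median 178) in the low set (2.26 ± 0.64, adjusted p = 0.4). Mag was above the low median in all 8 high libraries, and the 5 highest values, in libraries 6, 2, 10, 4 and 12, were all in the high set. Opalin ran from 9.26 to 1274 (median 96.6) in the high set and from 0 to 48.2 (median 25.8) in the low set (2.80 ± 0.98, adjusted p = 0.419). Mog, of the outer myelin surface, had medians of 260.4 against 35.9 (2.41 ± 0.86, adjusted p = 0.428).

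The myelin median was 1.23 in the H3.3WT libraries alone and 1.44 in the H3.3K27M libraries alone, and it was 1.17 with libraries 6 and 8 left out. Mag, Opalin and Mog were among the 24 genes that DESeq2 called higher. Leaving out 1 library at a time gave medians from 0.91 (without library 1) to 1.73 (without library 3). Library 8, second by score of the high set, was at 8.998 on the list's mean level, library 6 at 12.36 and library 16 at 7.47. The neuron list had a median difference of 0.34 with 12 of 17 above 0. Its median was 0.05 without libraries 6 and 8 and -0.04 without library 6 alone. Syt1, a synaptic vesicle protein, ran from 224 to 7881 (median 607) in the high set and from 64.9 to 1004 (median 275) in the low set (1.54 ± 0.76, adjusted p = 0.522), its highest value being in library 6. Adding the neuron or the haemoglobin level to the fit left 0 genes called in either direction.

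Haemoglobin genes were above 0 in all 5 cases, with a median of 2.50, and 0 passed an unadjusted p under 0.05 between the sets. The median was 1.49 without library 1 and 3.67 without library 5. On the continuous score all 5 slopes were above 0, with a median of 4.35 log2 units per unit of score. That of Hbb-bs was 4.71 ± 1.49, with an unadjusted p of 0.00573 and an adjusted p of 0.137 by limma. Hbb-bs, whose reads can be shared with its close copy Hbb-bt, ran from 451 to 312025 (median 14925) in the high set and from 119.9 to 74137 (median 859) in the low set (2.81 ± 1.53, adjusted p = 0.544). The sets overlapped, with 74137 in library 5 and 24556 in library 11 of the low set. Genes of oligodendrocyte progenitors were above 0 in 8 of 18 cases (median -0.06). Gpr17, a receptor of committed progenitors, ran from 4401 to 60164 (median 19252) in the high set and from 1725 to 27614 (median 8858) in the low set (1.38 ± 0.59, adjusted p = 0.468). Olig2 and Cspg4 had medians of 29490.4 against 24379 and 30875 against 34663 (0.35 ± 0.28, adjusted p = 0.672 and -0.31 ± 0.22, adjusted p = 0.624). Astrocyte genes were above 0 in 8 of 14 cases (median 0.09, from -0.02 without library 5 to 0.39 without library 3), and Gfap, their intermediate filament, had medians of 8441 against 1525 (1.34 ± 0.76, adjusted p = 0.562). Fgfr3, also on this list, went the other way, with medians of 1057 against 2632 (-0.92 ± 0.46, adjusted p = 0.527).

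**Figure D5:**
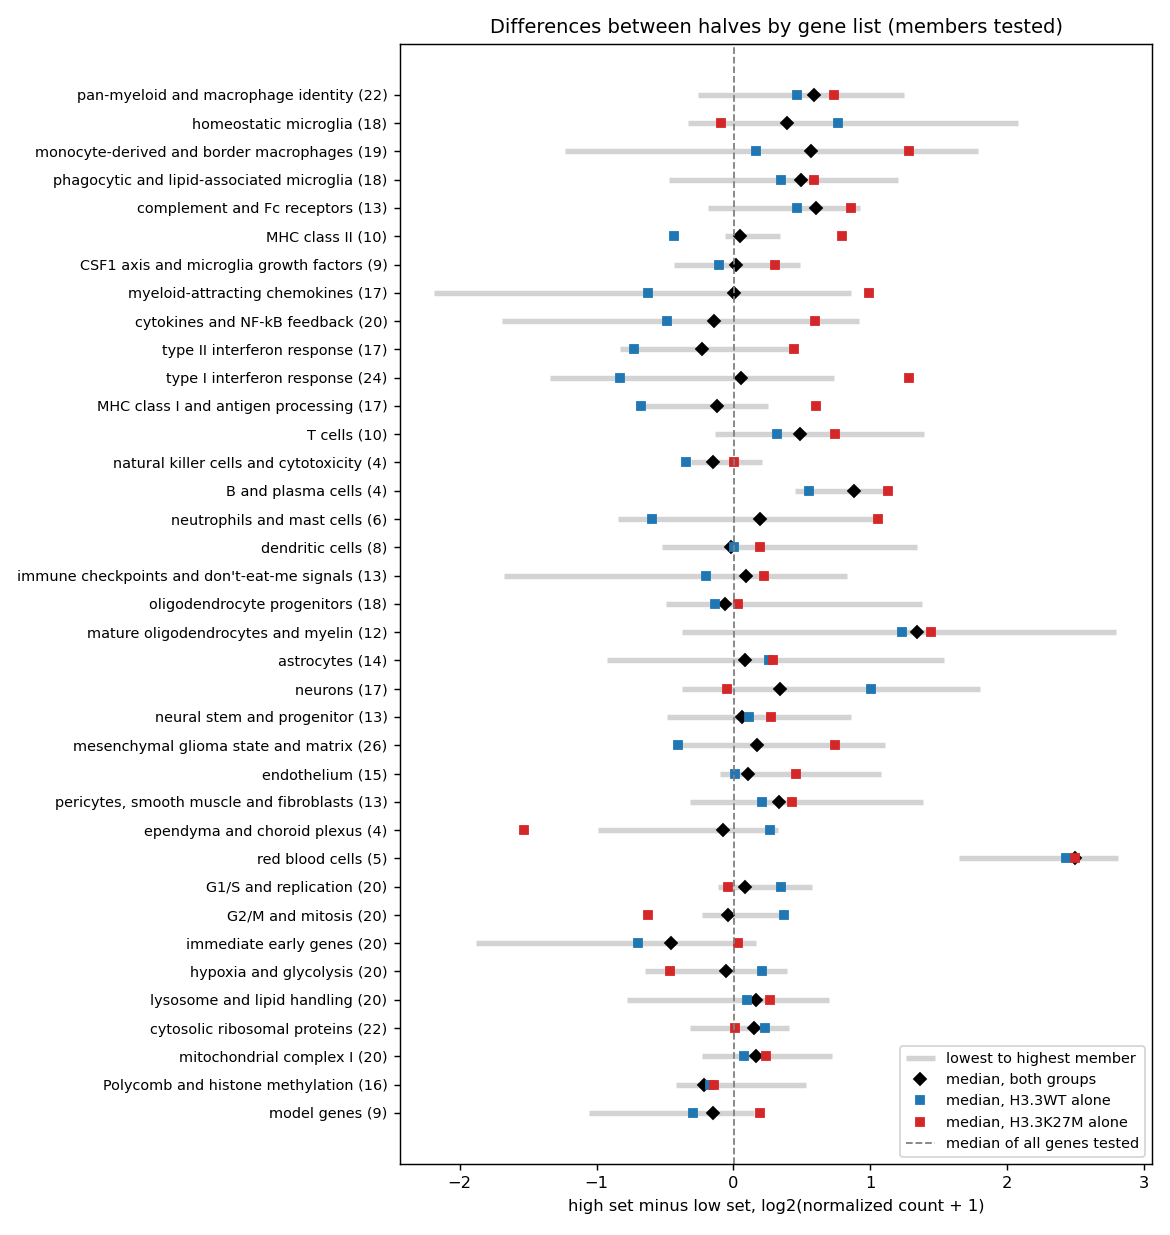
Difference between sets in log2(normalized count + 1) for each gene list, as the range of its tested members (grey bar), its median in both groups (diamond) and in each group alone (squares), with the number of members tested in brackets and a dashed line at the median of all genes. The myelin (1.34) and haemoglobin (2.50) medians lie furthest right, and 20 of the 37 lists, the interferon and MHC lists among them, have squares on opposite sides of 0.

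Genes of the mesenchymal glioma state were above 0 in 16 of 26 cases (median 0.17), with 2 higher at an unadjusted p under 0.05, and their median was -0.40 in the H3.3WT libraries alone and 0.74 in the H3.3K27M libraries alone. Without library 12 the median over both groups was -0.05, and without library 2 it was 0.31. S100a6, a calcium-binding protein, ran from 545 to 5109 (median 1367) in the high set and from 202 to 2187 (median 517) in the low set (1.10 ± 0.49, adjusted p = 0.481), and Plau, the urokinase, had medians of 399.9 against 197 (0.67 ± 0.31, adjusted p = 0.49). Endothelial genes were above 0 in 12 of 15 cases (median 0.11) and pericyte and fibroblast genes in 10 of 13 (median 0.33), among them the pericyte gene Rgs5 at medians of 5784 against 3230.0 (0.72 ± 0.38, adjusted p = 0.542). Without library 3 the endothelial median was -0.06 and the pericyte and fibroblast median 0.09, against highest values of 0.32 (without library 5) and 0.50 (without library 9). Neural stem cell genes were above 0 in 10 of 13 cases (median 0.06) and ependymal genes in 1 of 4 (median -0.08).

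Proliferation genes had medians of 0.08 for G1/S (16 of 20 above 0) and -0.04 for G2/M (7 of 20) over both groups. In the H3.3WT libraries alone these medians were 0.35 and 0.37, and in the H3.3K27M libraries alone -0.04 and -0.62. Without library 3 they were -0.16 and -0.26. Rrm2, a subunit of ribonucleotide reductase, had medians of 2847 against 2411 (0.58 ± 0.41, adjusted p = 0.628), and Ube2c, a ubiquitin-conjugating enzyme of mitosis, 3500.0 against 2832 (0.38 ± 0.29, adjusted p = 0.659). Ube2c had the highest difference of the 20 G2/M genes, of which 13 were below 0. Hypoxia genes were above 0 in 8 of 20 cases (median -0.05), but their slope on the continuous score was above 0 in 19 of 20, with a median of 0.47 per unit of score. Between the sets their median was 0.21 in the H3.3WT and -0.46 in the H3.3K27M libraries alone. Vegfa, the vessel growth factor, ran from 3775 to 55654 (median 10548) in the high set and from 3067 to 33189.9 (median 20558) in the low set (-0.62 ± 0.57, adjusted p = 0.73). Genes of the immediate early class, which are induced quickly by handling of tissue, were above 0 in 3 of 20 cases (median -0.46), with 2 lower at an unadjusted p under 0.05. Nr4a1 had medians of 5676 against 10195 (-0.89 ± 0.35, adjusted p = 0.434) and Klf4 of 97.1 against 249.9 (-1.31 ± 0.54, adjusted p = 0.455). Without library 5, which had the highest level of this list, its median was -0.09. In the H3.3K27M libraries alone the median was 0.04, and the slope on the continuous score was above 0 in 11 of 20 genes with a median of 0.11, so the direction depended on how the score was used.

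Lysosomal genes were above 0 in 15 of 20 cases (median 0.17), with 3 higher at an unadjusted p under 0.05. Ctsz, the protease cathepsin Z, ran from 2959 to 7108 (median 3873) in the high set and from 2175 to 3124 (median 2633) in the low set (0.70 ± 0.19, adjusted p = 0.4). Hexa, the alpha chain of hexosaminidase, had medians of 4990.1 against 3424 (0.46 ± 0.17, adjusted p = 0.428), and Npc2, the cholesterol carrier of lysosomes, 7796 against 5729 (0.51 ± 0.19, adjusted p = 0.428). Each of the 3 genes was above the low median in all 8 high libraries, and removal of the trend on exon length left a list median of 0.21. Without library 12 the median was 0.10.

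Complex I genes of the respiratory chain had a median of 0.17 with 15 of 20 above 0, and ribosomal protein genes 0.15 with 17 of 22. With the length trend of each library removed these medians were 0.02 and 0.06, and without library 3 they were 0.11 and 0.05. Ndufa2, Ndufs8 and Ndufs7 passed an unadjusted p under 0.05 (0.72 ± 0.27, adjusted p = 0.428, 0.37 ± 0.14, adjusted p = 0.431 and 0.36 ± 0.17, adjusted p = 0.495). Polycomb and histone methylation genes had a median of -0.21 with 5 of 16 above 0, and -0.06 with the trend removed. Suz12, a subunit of the H3K27 methyltransferase PRC2, ran from 1901 to 3196 (median 2725) in the high set and from 2896 to 4261 (median 3490.2) in the low set (-0.40 ± 0.13, adjusted p = 0.416), and Kmt2c, an H3K4 methyltransferase, had medians of 2841 against 4863 (-0.34 ± 0.16, adjusted p = 0.504). Ezh2, the catalytic subunit of PRC2, had medians of 2431 against 2171 (0.53 ± 0.27, adjusted p = 0.527). Its difference was 0.90 in the H3.3WT libraries alone and 0.0075 in the H3.3K27M libraries alone. The lowest Ezh2 value, 532, was in library 3 of the low set. With the length trend removed the difference of Kmt2c was -0.12, that of Suz12 -0.38 and that of Ezh2 0.59.

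The genes of the model showed no call. Pdgfa, the ligand delivered by RCAS, ran from 12238 to 54315 (median 25060.2) in the high set and from 10387 to 44796 (median 24180.0) in the low set (-0.05 ± 0.32, adjusted p = 0.974), and its receptor Pdgfra from 31738 to 188416 (median 105716) in the high set and from 57937 to 250718 (median 114166) in the low set (-0.15 ± 0.40, adjusted p = 0.918). Trp53, which Cre removes in the infected cells only, ran from 757 to 1815 (median 1044) in the high set and from 649 to 2520.0 (median 1035) in the low set (-0.37 ± 0.25, adjusted p = 0.61). Cdkn1a, the p53 target p21, ran from 1137 to 8329.6 (median 2111) in the high set and from 1224 to 11393 (median 3547) in the low set (-1.06 ± 0.43, adjusted p = 0.434), past an unadjusted p of 0.05 alone of the 9 genes. Nes, whose promoter drives the viral receptor, had medians of 6974 against 8982 (-0.48 ± 0.24, adjusted p = 0.513), and H3f3a, 1 of the mouse H3.3 genes, 312 against 273 (0.12 ± 0.19, adjusted p = 0.856). Reads of H3f3a can be shared with near-identical copies, so that its level is uncertain.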

How the data were processed

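Bulk RNA of 16 tumour libraries was sequenced as 50-base single reads after a TruSeq mRNA preparation, per the labels' protocols. The tools named in the submitters' processing notes are STAR 2.7, HTSeq and DESeq2, with mm10 as the build. Whether counting used strand is not given in the sources used here, so reads of overlapping genes may be mixed. The deposited table holds 1 signal value per gene and library, a normalized count that the authors scaled between libraries. All values (100%) were whole multiples of a library step within 0.01, so whole reads could be recovered. The plan had allowed for plain counts, and the test for normalized values was used instead. Of 23563 lines, 208 repeats were removed, leaving 23355 genes, of which 23322 were named from GENCODE M21.

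Columns were tied to the H3.3WT (9) or H3.3K27M (7) group only through the size of the 2 column groups that the deposited means name (libraries 1 to 9 and 10 to 16), and carry no replicate number. Genes with at least 10 in at least 7 libraries were kept (15003, without the 4 score genes). log2(value + 1) was fitted with limma 3.58.1 (R 4.3.3) with a mean-variance trend, on set (high or low) and group, with Benjamini-Hochberg adjustment at 0.05. On the recovered reads edgeR 4.0.16 called 0 genes and DESeq2 1.42.0 called 24 higher and 6 lower. The fit was tested on simulated data. Genes named are the 4 score genes, the 10 smallest p-values per direction outside the myeloid lists, and up to 4 genes per list, with the growth factor and model lists in full. Some genes that this rule names are not reported here. Members and lists were chosen with earlier results of these data known. In all, 35 planned and 2 added alternatives were run. Promoter windows are from RefSeq.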

Additional observations from a re-analysis of the deposited data

Results flagged for a closer look

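Values on the log2 scale were examined within each set of 8 libraries for 1 library standing far from the others. Of 126 such examinations 8 were picked out, and chance picks out about 1 in 20. Library 8 stood low in the high set on 3 measures. Its log2 number of reads was 23.447, its Haus2 level 10.173 and its dendritic cell list score 5.766. Library 3 stood low in the low set on both proliferation lists, with 9.375 for G1/S and 10.076 for G2/M. Rinl was high in library 10 of the high set at 9.172, and Ttc5 was low in library 5 of the low set at 9.433. The ependyma and choroid plexus list was high in library 13 of the low set, at 12.01 against 8.415 for the next library. What sets these libraries apart was not tested.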

How the results depend on the processing

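The count of 0 genes called in either direction was kept by all alternatives except 2. DESeq2 on the recovered reads called 24 genes higher and 6 lower, and 22 for the set by group term, and the continuous score called 2 genes higher. Leaving out each library in turn gave 0 genes higher, 0 lower and 0 to 1 for the set by group term. The 1 gene was Meox2 without library 6, and another gene without library 12, where Meox2 had an adjusted p of 0.337 by limma. Meox2 was also the 1 gene called with a pseudocount of 0.5, with the neuron level as a covariate and with libraries 6 and 8 left out (an alternative chosen after seeing the data, as was leaving out libraries 9 and 11). For edgeR's quasi-likelihood test the counts stayed at 0. The cause of these differences was not tested. Of 81 named results, 69 kept their sign throughout. In the H3.3K27M libraries alone the sign turned for Csf1 (0.46), Il34 (0.27), Mx1 (1.16), Ifih1 (0.11), Ifi47 (0.44), Tap1 (0.32), Trp53 (0.20), H3f3a (-0.088) and Pdgfa (0.30), and in the H3.3WT libraries alone for Oas2 (-0.026) and Pdgfra (0.21). Pdgfra also turned without libraries 6 and 8 (0.17), Csf1 without library 3 (0.064; range over single libraries left out -0.46 to 0.064), and Vegfa with the continuous score (0.24) and with the score without Aif1 (0.24). Pdgfa, close to 0, turned with edgeR (0.027), with DESeq2 (0.032) and with no group covariate (0.028), and ran from -0.44 to 0.19 as single libraries were left out, above 0 without library 3, 5, 7, 10 or 13. None of the genes that turned had passed the threshold. No paired analysis was possible because the columns carry no replicate numbers. Of 37 list medians, 21 changed sign as some single library was left out, 20 had opposite signs in the 2 groups and 6 had a slope on the continuous score of the other sign. Leaving out library 8, the shallowest, also gave 0 calls. How far depth and the number of libraries limit the calls was not tested, and the H3.3K27M high set holds 2 libraries.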
